A study of Mus musculus with 10 samples.

Results

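Blcap and Grb10 were the only genes of a list of 60 mouse imprinted genes that were named as the nearest gene of a differentially methylated region (DMR) in lymph node (LN) stromal cells (SCs), each with 1 DMR. Both DMRs were members of the 17 regions called between mesenteric LN (mLN) SCs of specific pathogen-free (SPF) and germ-free (GF) mice, and they made up 2 of the 2132 DMRs in the 4 tables of pairwise comparisons. Neither gene was listed for pLN housing or for either comparison of mLN with skin-draining peripheral LN (pLN). The regions were therefore chosen by their own mLN values: the mLN SPF to mLN GF contrast is given below as a description with no test, and only the pLN libraries, which that call did not use, were tested.

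Whole-genome bisulfite sequencing (WGBS), in which unmethylated cytosines are converted and read as thymine, was run on CD45-CD31-Ter119-Pdpn+ non-endothelial SCs sorted from adult BALB/c mice. Of the 10 libraries, 3 came from mLN and 3 from pLN of SPF mice, and 2 from each node of GF mice, and the source label of the pLN libraries also carries the word mesenteric while their titles say pLN. The labels name the strain and no treatment or altered gene. The methods name CD90.1 mice, which carry a variant allele of a cell surface marker, as the BALB/c line bred under SPF conditions, and name GF mice only as BALB/c, so this allele may also differ between the housings. GF mice were derived by caesarean section and kept in isolators, partly at another institution than the SPF colony, so housing and facility cannot be told apart. The paper states that mice were age-matched. It gives overlapping age ranges that start and end at fewer weeks for GF than for SPF mice, so age may also differ between the housings. The cells were sorted in bulk and hold several SC subsets, so a change in methylation within cells and a change in the share of subsets cannot be told apart. Reads were not assigned to the maternal or paternal allele, and expression was not analysed here, so the labelled cell type was not checked against its markers.

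Imprinted genes are expressed from only one parental allele. Their control regions carry CpG methylation on one allele and none on the other, a difference set in the germ line and kept in body cells by factors such as the zinc finger protein ZFP57, so that a bulk sample reads close to 50%. Blcap encodes a small membrane protein first described in bladder cancer and surrounds the imprinted gene Nnat, which encodes neuronatin, is transcribed from the paternal allele and lies in a Blcap intron on the opposite strand. Grb10 encodes an adaptor protein that binds the insulin and insulin-like growth factor receptors and restrains growth, and it is transcribed from the maternal allele in most tissues and from the paternal allele in neurons, from different promoters.

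The Blcap DMR spans chr2:157559186-157559825 (GRCm38), 640 bp. It lies in an intron of the protein-coding Blcap transcripts, which run on the reverse strand, and its last 111 bp overlap an exon of a noncoding Blcap transcript, whose start site is 182 bp past the DMR. The 10 annotated Nnat transcripts start between 253 and 1184 bp past it, and the Nnat promoter window in RefSeq begins 3 bp past its end. The start sites of the protein-coding Blcap transcripts nearest to it lie 6512 and 6536 bp away, and the miRNA gene Gm23134 starts 2622 bp away. Nnat thus starts nearer to the DMR than the coding Blcap transcripts, while the noncoding Blcap transcript starts nearest of all.

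The Grb10 DMR spans chr11:12026129-12026932 (GRCm38), 804 bp. It holds the start sites of 2 Grb10 transcripts on the reverse strand, at 12026732 and 12026324, and overlaps their untranslated first exons by 71 bp and 196 bp, respectively. The start site of a further Grb10 transcript lies 1039 bp away. Among the 17 mLN housing DMRs it was the longest and held the most CpGs with a deposited value. The Blcap DMR ranked 3 by length and 2 by these CpGs. By the authors' own count of CpGs per DMR, Grb10 ranked only 4, with 8 CpGs, and Blcap shared rank 2, with 16 CpGs.

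Forward-strand sequences of a middle stretch of each DMR are shown from the RefSeq GRCm38.p6 genome, with every CpG in capitals. The Blcap stretch, chr2:157559400-157559699, covers the middle of the DMR with 12 measured CpGs. The Grb10 stretch, chr11:12026325-12026624, lies between the untranslated first exons and holds 49 measured CpGs.
Blcap DMR, middle: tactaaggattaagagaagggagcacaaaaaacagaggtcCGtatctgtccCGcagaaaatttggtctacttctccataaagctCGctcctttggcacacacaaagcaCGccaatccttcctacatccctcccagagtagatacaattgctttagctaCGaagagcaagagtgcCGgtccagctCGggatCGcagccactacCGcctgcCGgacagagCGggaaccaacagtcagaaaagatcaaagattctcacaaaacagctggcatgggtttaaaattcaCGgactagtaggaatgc
Grb10 DMR, middle: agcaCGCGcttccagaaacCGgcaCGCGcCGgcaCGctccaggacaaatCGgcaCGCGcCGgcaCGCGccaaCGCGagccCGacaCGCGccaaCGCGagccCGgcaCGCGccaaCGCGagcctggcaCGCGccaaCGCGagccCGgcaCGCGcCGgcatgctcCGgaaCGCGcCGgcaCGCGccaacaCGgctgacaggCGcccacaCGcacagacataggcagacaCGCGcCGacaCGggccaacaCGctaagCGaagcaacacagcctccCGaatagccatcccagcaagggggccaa
The difference in CpG spacing is visible by eye. All 24 CpGs of the Blcap DMR and all 87 of the Grb10 DMR had a value in all 10 libraries, with a median distance between neighbours of 21 bp in Blcap and 5.5 bp in Grb10. The 12-base word ccggcacgcgcc occurs 7 times in the Grb10 DMR, between 12026255 and 12026508, partly before the printed stretch, while no 12-base word occurs more than once in the Blcap DMR.

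Both DMRs were richer in CpGs than most regions of the tables. The observed over expected CpG number (the count of CpGs relative to that given by the C and G content) was 0.694 in the Blcap DMR. Of 1601 windows of the same length centred on the other merged regions, 14 were higher, and the median was 0.328. The ratio was 1.02 in the Grb10 DMR, and 0 of 1601 windows of its length were higher. The G+C content was 66.3% in Grb10 (2 windows higher) and 46.5% in Blcap (723 windows higher), so Blcap was high among windows of its length in CpGs and not in G+C content. At their own lengths, 158 of the 1601 other regions had a higher ratio than Blcap, with up to 87 CpGs, and 43 had a higher ratio than Grb10, with at most 20 CpGs each.

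The hexamer TGCCGC, which ZFP57 binds when its CpG is methylated, was searched on both strands. The Blcap DMR held 2 copies, both on the reverse strand and close together, at 157559779 to 157559784 and at 157559793 to 157559798. They are shown in capitals as read on the forward strand in chr2:157559775-157559802, where each hexamer holds 1 CpG and begins with the G of another.
Blcap hexamers: tggcGCGGCActggttacGCGGCAtgta
The Grb10 DMR held 1 copy on the forward strand, at 12026225 to 12026230, and 1 on the reverse strand, at 12026247 to 12026252. At least 1 copy was present in 9.43% of windows of 640 bp and in 11.4% of windows of 804 bp, and at least 2 copies in 0.687% and 1.19%. These windows were matched for length only. They held a median of 11 and 13 CpGs, against 24 in the Blcap and 87 in the Grb10 DMR. The shares thus do not tell how common 2 copies are in sequence as rich in CpGs or G+C. At the 2 Blcap hexamers the CpG was methylated at 28.6 to 71.4% and 30.0 to 71.4% over the 10 libraries. At the 2 Grb10 hexamers it ranged from 0 to 80% and from 0 to 75%, and at the copy on the reverse strand both pLN GF libraries read 0 while pLN SPF libraries averaged 55.6% ± 9.62 (SD, n = 3).

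In the Blcap DMR, mLN SPF libraries lay above the 50% level and all but 1 of the others lay below it. The mean over the 24 CpGs was 61.1%, 82.6% and 64.8% in mLN SPF replicates 1, 2 and 3, and 42.5% and 34.8% in mLN GF replicates 1 and 2. It was 48.3%, 43.5% and 38.8% in pLN SPF and 50.9% and 40.3% in pLN GF. The deviation from 50% was thus 11.1, 32.6 and 14.8 percentage points in the mLN SPF libraries and -7.53 and -15.2 points in the mLN GF libraries. Replicate 2 of mLN SPF was the highest of the 10, with 10 of its 24 CpGs fully methylated.

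The Blcap DMR averaged 69.5% ± 11.5 (SD, n = 3) with SPF and 38.6% ± 5.42 (SD, n = 2) with GF housing in mLN. The pLN averages were 43.5% ± 4.71 (SD, n = 3) under SPF and 45.6% ± 7.47 (SD, n = 2) under GF conditions. The mLN difference of 30.9 points, with a pooled SD of 9.91, is the contrast that chose the region. The groups did not overlap in mLN. Over the 1602 merged regions, all mLN SPF libraries were above both mLN GF libraries in 12.6% and below both in 8.86%. The difference of mLN SPF minus pLN SPF was 26.0 points and that of mLN GF minus pLN GF was -6.97 points, so that the group apart from the other 3 was mLN SPF. These differences between nodes use the mLN libraries that chose the region and are likewise a description.

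**Figure D1:**
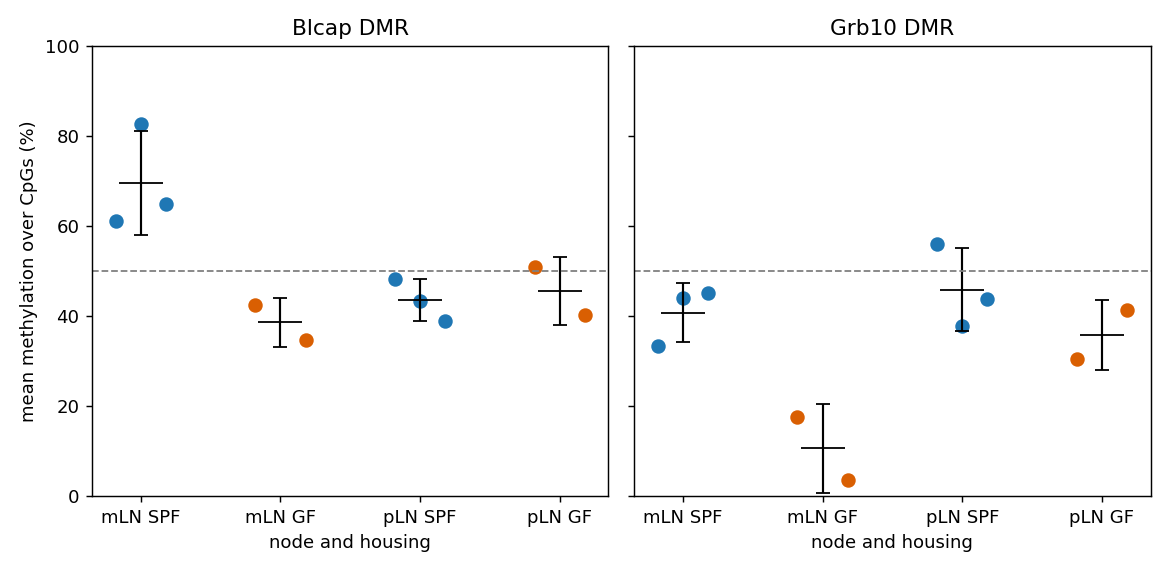
Mean methylation (%) over the CpGs of the Blcap DMR (left) and the Grb10 DMR (right) in each library, by node and housing. Points are libraries (blue SPF, orange GF), the horizontal mark and bar are the group mean and SD, and the dashed line is the 50% level. In Blcap the 3 mLN SPF points sit at 61.1 to 82.6%, above all others, and in Grb10 the 2 mLN GF points sit at 3.67 and 17.7%, below all others.

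In the Grb10 DMR, the group that stood apart was mLN GF, on the low side. The mean over the 87 CpGs was 33.3%, 44.0% and 45.1% in mLN SPF replicates 1, 2 and 3, and 17.7% and 3.67% in mLN GF replicates 1 and 2. It was 55.9%, 37.9% and 43.8% in pLN SPF and 30.4% and 41.4% in pLN GF. Only pLN SPF replicate 1 lay above 50%, by 5.92 points. The deviation from 50% was between -19.6 and -4.87 points in the other 7 libraries outside mLN GF, and -32.3 and -46.3 points in the mLN GF libraries.

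The Grb10 DMR averaged 40.8% ± 6.54 (SD, n = 3) with SPF and 10.7% ± 9.89 (SD, n = 2) with GF housing in mLN. The pLN averages were 45.9% ± 9.20 (SD, n = 3) under SPF and 35.9% ± 7.77 (SD, n = 2) under GF conditions. The mLN difference was 30.1 points with a pooled SD of 7.82, again the contrast that chose the region, and the mLN groups did not overlap. The difference of mLN GF minus pLN GF was -25.2 points and that of mLN SPF minus pLN SPF was -5.09 points. The DMRs thus shared the direction of the mLN difference, SPF above GF, and differed in which group left the range of the other libraries. Both statements rest on the mLN libraries that chose the DMRs and were not tested.

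In pLN, the SPF and GF libraries overlapped in both DMRs, while over the merged regions all SPF libraries were above all GF libraries in 8.93% and below them in 15.8%. The difference of pLN SPF minus pLN GF in the Blcap DMR was -2.08 points against a pooled SD of 5.78 (two-sided exact permutation test, p = 0.7). In the Grb10 DMR it was 10.0 points against a pooled SD of 8.75 (two-sided exact permutation test, p = 0.4). With 3 libraries against 2, the exact permutation test cannot go below p = 0.1. Without pLN SPF replicate 3 or without pLN GF replicate 1 the Blcap difference turned to 0.263 and 3.20 points, so its sign was not settled by these libraries. The Grb10 difference fell to 4.98 points without pLN SPF replicate 1 and to 4.50 points without pLN GF replicate 1, and it was 15.5 points without pLN GF replicate 2. The difference between the mLN and the pLN effect was not tested, since the mLN libraries chose the regions.

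In a limma fit over all 1602 merged regions with the 5 pLN libraries, the Blcap difference of -2.08 points had a standard error of 5.03 (limma, adjusted p = 0.929), and the Grb10 difference of 10.0 points had a standard error of 6.34 (limma, adjusted p = 0.737). No region was called in that fit (0 of 1602, 0.00%, at an adjusted p under 0.05), 95 regions (5.93%) had an unadjusted p under 0.05, and on a logit scale limma called 1 region, nearest to Fam63a, named here after its values were seen. The absolute pLN difference was larger than that of Blcap in 1193 regions and larger than that of Grb10 in 220. The median over regions was 4.33 points in pLN and 4.16 points in mLN. The merged regions include the 16 DMRs called between pLN SPF and pLN GF, and the location DMRs were also called with pLN libraries. These counts and the pLN shares over merged regions are thus no unselected background.

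**Figure D2:**
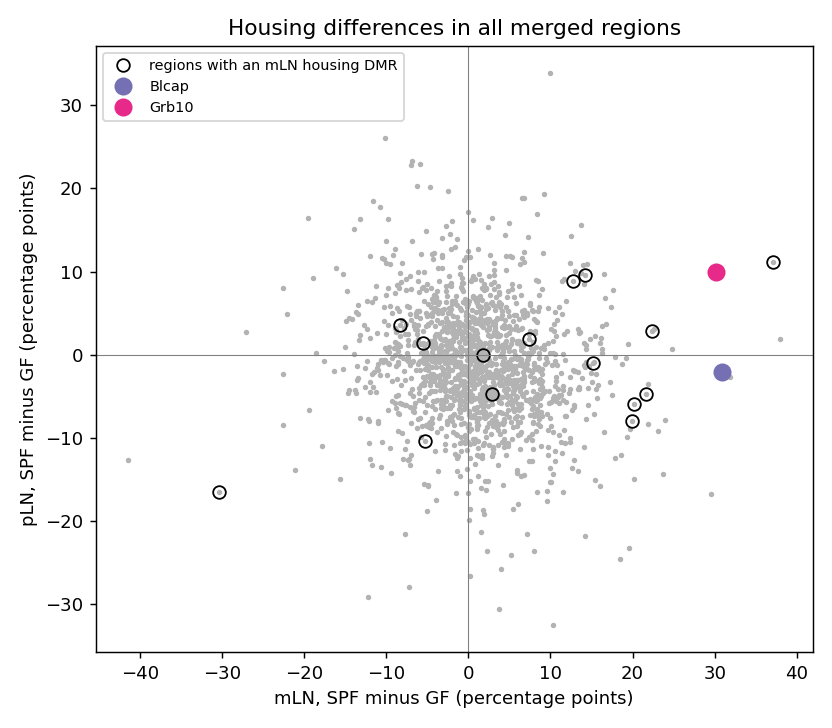
Difference in mean methylation between SPF and GF (percentage points) in mLN (horizontal) and pLN (vertical) for the 1602 merged regions. Grey points are regions, open circles are regions holding an mLN housing DMR, and filled points are Blcap (30.9 in mLN, -2.08 in pLN) and Grb10 (30.1 in mLN, 10.0 in pLN), which lie far to the right and within the vertical spread of the other regions.

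The pLN libraries also gave the level of each region away from the contrast that chose it. Over the 5 pLN libraries the Blcap DMR averaged 44.4% ± 5.13 (SD, n = 5), with a lowest value of 38.8%, a median of 43.5% and a highest of 50.9%. The deviation from 50% was -5.64 points (two-sided exact sign-flip permutation test, p = 0.125). The Grb10 DMR averaged 41.9% ± 9.35 (SD, n = 5), with a lowest value of 30.4%, a median of 41.4% and a highest of 55.9%. The deviation was -8.12 points (two-sided exact sign-flip permutation test, p = 0.125). With 5 libraries the exact sign-flip test cannot go below p = 0.0625, and in both DMRs 4 of the 5 libraries were below 50%. A mean pLN level within 10 points of 50% was found in 31.0% of all merged regions, both DMRs included, so such a level was common in the tables. All 5 pLN libraries lay within 20 points of 50% in 36.4% of regions, again with both DMRs, and within 10 points in 8.61%, without either DMR.

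**Figure D3:**
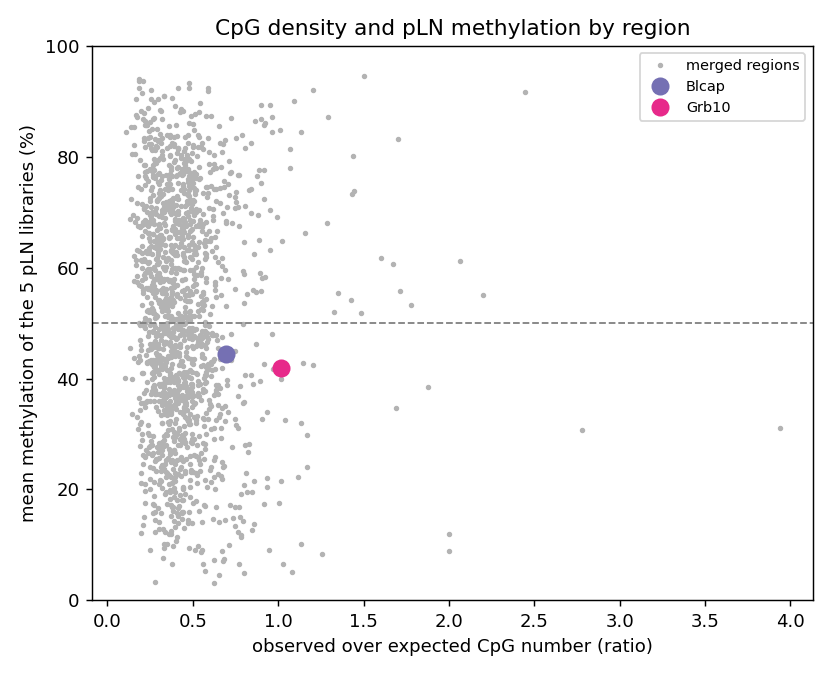
Mean methylation of the 5 pLN libraries (%) against the observed over expected CpG number (ratio) of each merged region at its own length. Grey points are regions, filled points are Blcap (0.694, 44.4%) and Grb10 (1.02, 41.9%), and the dashed line is the 50% level. Both lie right of most regions and slightly below the line, and each region farther right than Grb10 holds at most 20 CpGs.

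Among the 15 other mLN housing DMRs, the mean of the 5 pLN libraries ranged from 8.36 to 92.4%, and it was within 10 points of 50% in 2. In 5 of the 17 DMRs, Blcap among them, the mLN SPF and mLN GF means lay on opposite sides of 50%, while for Grb10 both lay below it. The tables also carry means after smoothing along the genome, and the authors' smoothed means were 68.1% in mLN SPF and 41.0% in mLN GF for Blcap, a difference of 27.1 points, and 46.2% and 18.4% for Grb10, a difference of 27.8 points. The unsmoothed differences of 30.9 and 30.1 points had the same sign. In 4 of the 17 DMRs the unsmoothed and the smoothed difference had opposite signs, neither Blcap nor Grb10 among them.

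The Blcap DMR was not uniform along its length. Split into 3 stretches of equal length in forward order, a split chosen after the values were seen, its first 5 CpGs (157559186 to 157559399) were highly methylated in every group. In mLN they read 86.7% ± 2.84 (SD, n = 3) under SPF and 74.6% ± 12.7 (SD, n = 2) under GF conditions. In this stretch alone, of the 3, the pLN groups were apart: pLN SPF libraries lay at 77.9 to 80.3% and pLN GF libraries at 65.5% and 61.6%. Over whole merged regions, all pLN SPF libraries were above all pLN GF libraries in 8.93% and below them in 15.8%. The separation in this stretch was not tested. No library was within 10 points of 50% there.

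The middle 10 CpGs of Blcap (157559400 to 157559612), all of them in the sequence printed above, held the widest gap. The 3 mLN SPF libraries read 64.2%, 95.5% and 51.8%, and the mLN GF libraries 16.8% and 22.0%. The pLN SPF libraries read 28.3%, 23.2% and 24.4%, and the pLN GF libraries 46.0% and 21.1%. All pLN libraries were thus below 50% here, with 21.1% the lowest, and mLN GF replicate 1 lay below that value and replicate 2 just above it. The mLN difference in this stretch was 51.1 points with a pooled SD of 18.5. In mLN GF replicate 1, the 4 neighbouring CpGs from 157559558 to 157559590 were all at 0.

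The last 9 CpGs (157559613 to 157559825), on the side of Nnat, lay nearest to 50%. The mLN SPF libraries read 41.6%, 67.0% and 68.1% and the mLN GF libraries 48.1% and 31.9%, so the mLN groups overlapped here. The pLN SPF libraries read 53.6%, 45.5% and 33.2%, and the pLN GF libraries 48.1% and 49.9%. Of the 10 libraries, 6 were within 10 points of 50% in this stretch. The mean of the Blcap DMR near 50% in pLN therefore combined unlike stretches: the 5 pLN libraries averaged 72.8%, 28.6% and 46.1% in forward order.

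**Figure D4:**
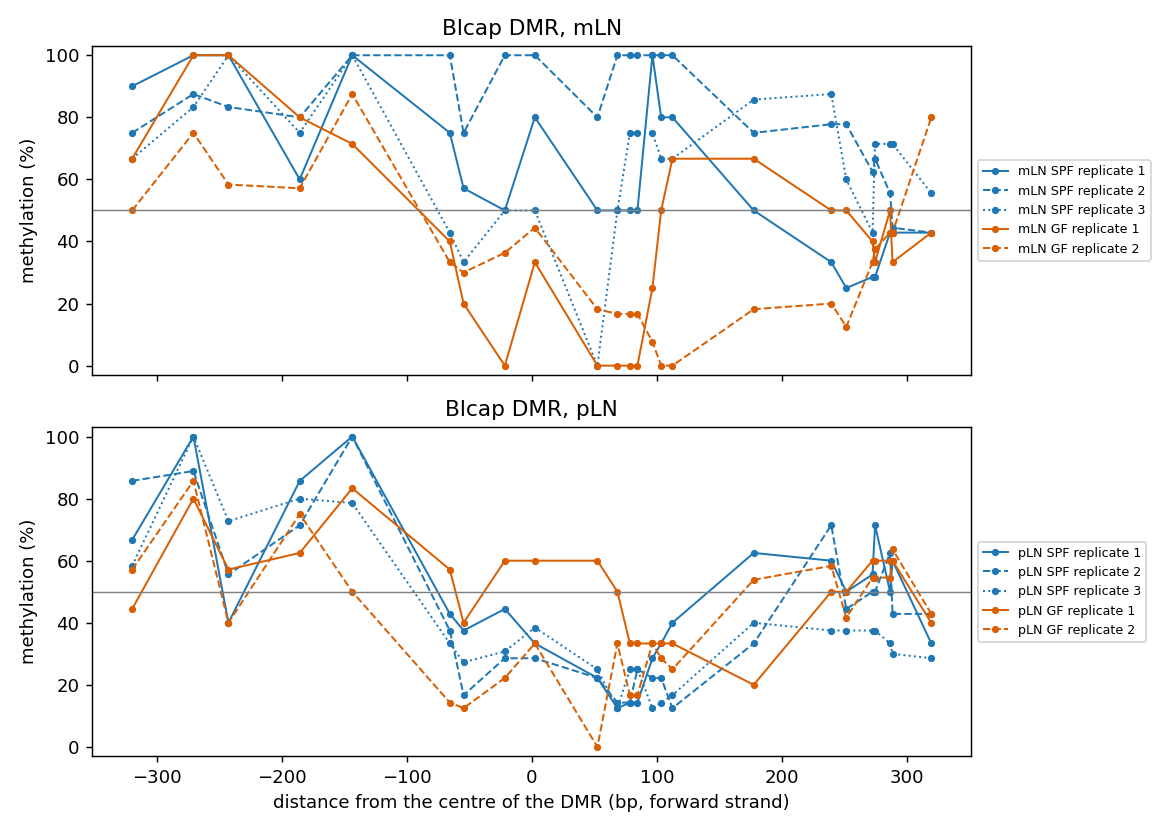
Methylation (%) of each of the 24 CpGs of the Blcap DMR against distance from the centre of the DMR (bp, forward strand), for mLN (top) and pLN (bottom). Each line is a library, blue for SPF and orange for GF, and the grey line is the 50% level. The 5 leftmost CpGs are high in most libraries, and around the centre the mLN GF and pLN SPF lines drop below 50% while mLN SPF replicate 2 stays at 75% or more.

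Single CpGs of Blcap followed the region. The mean of mLN SPF was above that of mLN GF at 23 of 24 CpGs, and all mLN SPF libraries were above all mLN GF libraries at 10 CpGs (41.7%) and below at 0, against 8.92% and 7.14% of the 23850 CpGs with a value in all 10 libraries. The mLN libraries chose the region, so this excess over all CpGs follows from the choice and gives it no support. In pLN the mean of SPF was above that of GF at 9 of 24 CpGs. All pLN SPF libraries were above all pLN GF libraries at 2 CpGs (8.33%) and below them at 2 (8.33%), against 7.87% and 9.51% of all CpGs, which is near the background. The mean over the pLN libraries ranged from 20.7 to 90.9% between CpGs, and 8 of 24 were between 40 and 60%.

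The Grb10 DMR was more even in pLN. The mean over the pLN libraries ranged from 21.8 to 57.0% between its 87 CpGs, 51 of them were between 40 and 60%, and 84 were between 25 and 75%. Over all CpGs of the tables, 19.4% had a pLN mean between 40 and 60%, and 48.7% between 25 and 75%. Within single pLN libraries, between 59 and 84 of the 87 Grb10 CpGs were between 25 and 75%.

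The 2 mLN GF libraries differed from the rest by long runs of CpGs listed at 0. The authors counted only 8 CpGs in this DMR after their coverage filter, so many Grb10 values, zeros included, may rest on few reads. In mLN GF replicate 1, 53 of 87 CpGs (60.9%) were at 0, all in 1 unbroken run from 12026303 to 12026649. In mLN GF replicate 2, 73 of 87 (83.9%) were at 0, with a run of 66 CpGs from 12026129 to 12026532. In mLN SPF, 9, 17 and 15 CpGs were at 0, and in pLN SPF 0, 7 and 1. In pLN GF replicates 1 and 2 the numbers were 28 and 5. Over all CpGs of the tables, 10.5 to 14.1% were at 0 in each library. The highest share, 14.1%, was that of mLN GF replicate 1, followed by 13.1% in pLN GF replicate 1. The share in mLN GF replicate 2 was 12.2%, within the range of the other libraries. The mean over all CpGs was 48.2 to 52.2% in the 10 libraries.

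The mLN GF replicates held the same value at 52.9% of the Grb10 CpGs, against 14.2% of all CpGs, and differed in where their runs at 0 began and ended. In the first stretch (12026129 to 12026396, 37 CpGs), mLN GF replicate 1 averaged 26.6% and replicate 2 was at 0 at every CpG. In the middle stretch (12026397 to 12026664, 37 CpGs), replicate 1 was at 0 throughout and replicate 2 averaged 4.01%. In the last stretch (12026665 to 12026932, 13 CpGs) they averaged 42.4% and 13.1%. The mLN SPF group averaged 42.4% ± 14.2 and 34.9% ± 14.4 (SD, n = 3) in the first and middle stretch, and its libraries read 70.5%, 54.1% and 34.6% in the last. The mLN groups thus overlapped in the last stretch.

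In the same 3 stretches, pLN SPF libraries averaged 44.9% ± 7.38, 49.7% ± 17.2 and 37.5% ± 7.46 (SD, n = 3), and pLN GF libraries 29.8% ± 11.9, 40.8% ± 8.04 and 39.1% ± 4.61 (SD, n = 2). The pLN groups were furthest apart in the first stretch, with GF the lower, and did not overlap there (40.3 to 53.5% against 21.4% and 38.2%). Over whole merged regions, all pLN SPF libraries were above all pLN GF libraries in 8.93% and below them in 15.8%. As the split was chosen with the values known, this separation was not tested. The 23 CpGs within the 7 copies of the repeated word read 6.39% ± 9.04 (SD, n = 2) in mLN GF, and the other 64 CpGs read 12.2% ± 10.2 (SD, n = 2). In pLN SPF the corresponding levels were 47.1% ± 13.9 (SD, n = 3) and 45.5% ± 7.51 (SD, n = 3). For mLN SPF they were 36.9% ± 15.0 and 42.2% ± 4.86 (SD, n = 3). For pLN GF they were 34.0% ± 11.2 and 36.5% ± 6.54 (SD, n = 2). The group mean was thus lower in the copies in every group but pLN SPF, and this difference was not tested.

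**Figure D5:**
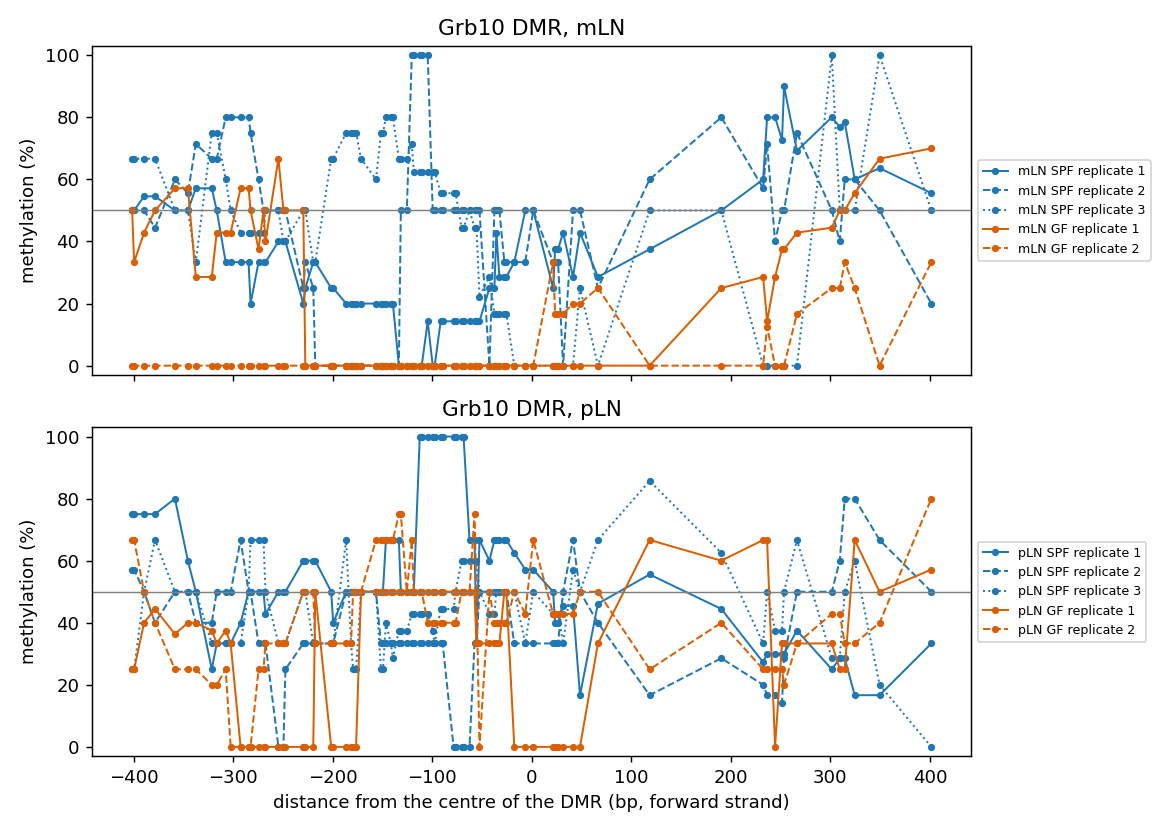
Methylation (%) of each of the 87 CpGs of the Grb10 DMR against distance from the centre of the DMR (bp, forward strand), for mLN (top) and pLN (bottom). Each line is a library, blue for SPF and orange for GF, and the grey line is the 50% level. The orange mLN lines lie on 0 over most of the left side and around the centre, while the pLN lines of both housings run mostly between 25 and 75%.

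At single Grb10 CpGs the mean of mLN SPF was above that of mLN GF at 86 of 87. All mLN SPF libraries were above all mLN GF libraries at 27 (31.0%) and below at 0, against 8.92% and 7.14% of all CpGs. This contrast chose the region, so the excess follows from the choice. In pLN the mean of SPF was above that of GF at 66 of 87 CpGs. All pLN SPF libraries were above all pLN GF libraries at 14 CpGs (16.1%) and below at 1 (1.15%), against 7.87% and 9.51% of all CpGs. These CpGs are no replicates: 66 of the 86 neighbouring pairs are at most 10 bp apart, neighbours can lie on the same reads, and between 39 and 73 pairs per library held equal values. In Blcap, between 1 and 10 of 23 neighbouring pairs did.

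The spread between replicate libraries was above the typical region in both DMRs. The pooled SD over the 4 groups was 8.11 points in Blcap and 8.30 points in Grb10, against a median of 5.81 over the 1602 regions, and 373 and 358 regions were higher. By absolute mLN difference, the quantity that chose them, they ranked 5 and 7. The authors counted 16 CpGs in the Blcap DMR and 8 in the Grb10 DMR after their coverage filter, while the table of single CpGs holds 24 and 87. Most Grb10 values printed here thus come from CpGs beyond the number that entered the call, and which CpGs were counted is not marked. The reads behind each value are unknown, so no interval for counting error is given. From 12026397 to 12026498 in Grb10, mLN SPF replicate 2 held only 0, 50 or 100%, values that few reads can give.

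The regions whose levels over the 10 libraries were most like those of Blcap, by mean absolute difference, were nearest to Smyd3 (7.90 points), Rps16-ps3 (8.0 points) and Wnt4 (8.68 points). All 3 were called between nodes, and their mLN GF means were 61.4% ± 1.25 (SD, n = 2), 62.5% ± 2.12 (SD, n = 2) and 61.8% ± 10.9 (SD, n = 2), above the 38.6% of Blcap. For Grb10 they were nearest to 4933423P22Rik (7.86 points), Sim1 (8.29 points) and Pitx1 (8.49 points), also called between nodes. Their mLN GF means were 23.0% ± 3.79 (SD, n = 2), 17.2% ± 0.755 (SD, n = 2) and 14.4% ± 4.60 (SD, n = 2). The mLN GF libraries entered the pick, so levels low as in Grb10 are part of it. The regions nearest to Sim1 and Pitx1 hold only 4 CpGs each.

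Of the 60 imprinted genes, listed from textbook knowledge, 58 were the nearest gene of no DMR. The 2 listed DMRs were 2 of 33 housing DMRs (6.06%) and 0 of 2099 location DMRs. Members and gene list were chosen with earlier results of these data known. These shares are therefore a description, give no support for a tie to housing and were not tested. With a smoothed difference of at least 35 points, 0 DMRs of the list remained among 392.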

How the data were processed

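WGBS libraries of 10 sorted SC samples (3 mLN SPF, 2 mLN GF, 3 pLN SPF, 2 pLN GF) were grouped by their labels. Another GF replicate of each node was left out by the authors as an outlier and was not analysed here. Per the methods and labels, the authors checked and trimmed reads with FastQC (0.11.1), trim_galore and cutadapt (1.4), aligned them to GRCm38 with BSMAP (2.4.3), kept unique, paired, de-duplicated reads, smoothed CpGs that passed a coverage minimum with bsseq and called DMRs of at least 3 CpGs and 25 points difference. The authors deposited an unsmoothed methylation fraction per CpG and library, without read numbers, and per DMR a count of CpGs and smoothed group means. Other deposited columns hold the authors' own test statistics and differences and were not used.

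Each library's level of a DMR was the unweighted mean percent methylation of its CpGs. The 2132 DMRs were merged into 1602 non-overlapping regions (24182 CpGs) for limma (3.58.1, R 4.3.3), with Benjamini-Hochberg adjustment, tested beforehand on simulated data. Single DMRs were compared by exact permutation tests over libraries. Likeness was the mean absolute difference over the 10 libraries, and the 3 closest regions were named, as were genes overlapping a DMR or starting within 10 kb. Sequences and the Nnat promoter window came from RefSeq (GRCm38.p6), and all 24182 CpG positions read CG there. Transcripts came from GENCODE M21. The study states at least 2 replicates in independent experiments for its bulk sequencing, which does not say that each library had its own, so p-values measure the spread between libraries, part of which may be technical. Replicates of a group held equal values at 11.4 to 14.2% of all CpGs, so no pair held the same values throughout. Members, gene list and tests were chosen with earlier results of these data known. Alternatives were the median over CpGs, complete CpGs, dropped end CpGs, a logit scale, all libraries in 1 fit, larger regions, the replicate number as a block and leaving out each library. Exact zeros are as deposited.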

Additional observations from a re-analysis of the deposited data

How the results depend on the processing

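Of 29 recomputations that left out no library, 25 were counted as unchanged. For this, tested values had to keep direction and side of the threshold. The mLN differences had to keep direction and shift by less than the pooled SD. Counts of called regions had to stay the same, and G+C shares had to stay within a binomial interval. With the median over CpGs, the mLN difference of Grb10 was 42.9 points. On the logit scale, 1 region was called in pLN. At a difference of at least 35 points, 0 DMRs of imprinted genes were left. The cause of the first and second of these was not tested, and the last follows from fewer DMRs. With the replicate number as a block, the pLN difference of Blcap was 0.263 points (limma, adjusted p = 0.998) and that of Grb10 11.0 points (limma, adjusted p = 0.864), with 0 regions called. That block compares only the 2 numbers present in both pLN groups. Deviations of libraries with the same number correlated between -0.0333 and 0.0434 over regions. Whether such libraries shared animals or a day of work cannot be told from these values.

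Leaving out each library in turn, the mLN difference ranged from 24.3 to 35.1 points in Blcap and from 23.1 to 37.1 in Grb10. The pLN difference ranged from -7.36 to 3.20 in Blcap, with 0.263 without pLN SPF replicate 3 and 3.20 without pLN GF replicate 1, and from 4.50 to 15.5 in Grb10. The pLN deviation from 50% ranged from -7.27 to -4.26 in Blcap and from -11.6 to -5.25 in Grb10. No region was called in any of these pLN fits. The depth behind each CpG is unknown, and 2 or 3 libraries per group limit what any test here can show.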
